A study of Mus musculus with 6 samples.

Results

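Chemokines are small secreted proteins that draw leukocytes toward the cells that make them, and here their transcripts were compared between 4T1 cells made resistant to axitinib (AxR) and the parental cells (P). 4T1 is a tumor line from the mammary gland of a Balb/c mouse, known for spreading to distant organs from the mammary fat pad. The members were all protein-coding genes whose symbol begins with Ccl or Cxcl and a number, plus Xcl1 and Cx3cl1, which gave 44 of the 53465 genes in the deposited table under 39 symbols, 7 of the identifiers lying on unplaced scaffolds. Each line had 3 libraries of polyadenylated RNA from cultured cells. P cells carry no treatment label, and AxR cells came from a metastatic lesion of the lung or lymph node in Balb/c mice that received 100 mg/kg/day of axitinib, which blocks VEGF receptors, through tumor growth and after tumor removal, and were then kept in 0.5 μM axitinib for more than 2 months. The growth label names 0.5 μM axitinib for all 6 samples, while the treatment label names it for AxR samples only. AxR is 1 derived line, so the drug, passage through the animal and the choice of cells that grew out cannot be told apart. Nothing in the labels says that the 3 libraries of a line were separate cultures, so p-values measure only the spread between these libraries, which may be technical.

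Chemokines are sorted by the spacing of their first cysteines into the CC, CXC, XC and CX3C families, and act through G protein-coupled receptors on the responding cell. CXC chemokines that carry a glutamate-leucine-arginine motif bind CXCR2 and draw neutrophils, and 4T1 tumors are known for a strong accumulation of neutrophils and related myeloid cells in the host. CC chemokines such as CCL2 draw monocytes through CCR2, and CXCL9, CXCL10 and CXCL11 are induced by interferon and draw activated T cells through CXCR3. Many of these genes are switched on by NF-kB, by interferon-driven STAT and IRF factors, or by both.

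The promoters of 4 CXC genes are shown because the 3 neutrophil attractants among them are close relatives in 1 cluster on chromosome 5, of which Cxcl1 fell and Cxcl3 rose, and because Cxcl10 carries a further element. Each is the 250 bases before the RefSeq start, 5′ to 3′ on the gene's strand, in GRCm38.p6, the C57BL/6J genome, whereas 4T1 came from a Balb/c mouse. Capitals mark matches, on either strand, to a kappaB motif (GGG and TTCC with any 3 bases between), an interferon-stimulated response element (GAAA and GAAA with any 2 bases between), a STAT site (TTCNNNGAA) or an AP-1 site (TGANTCA). The regions are chr5:90890995-90891244, chr5:90903649-90903898 and chr5:90785851-90786100 on the plus strand for Cxcl1, Cxcl2 and Cxcl3, and chr5:92348890-92349139 on the minus strand for Cxcl10.
Cxcl1: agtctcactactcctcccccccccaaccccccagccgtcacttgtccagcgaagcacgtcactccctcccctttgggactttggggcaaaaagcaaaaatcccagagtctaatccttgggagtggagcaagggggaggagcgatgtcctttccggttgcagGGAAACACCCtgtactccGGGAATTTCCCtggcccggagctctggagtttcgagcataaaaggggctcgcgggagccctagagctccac
Cxcl2: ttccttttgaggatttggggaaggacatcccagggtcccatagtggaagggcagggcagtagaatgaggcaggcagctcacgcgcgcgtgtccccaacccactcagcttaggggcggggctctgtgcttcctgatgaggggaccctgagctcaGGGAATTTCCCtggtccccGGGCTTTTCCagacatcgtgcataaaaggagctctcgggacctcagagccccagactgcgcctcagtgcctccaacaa
Cxcl3: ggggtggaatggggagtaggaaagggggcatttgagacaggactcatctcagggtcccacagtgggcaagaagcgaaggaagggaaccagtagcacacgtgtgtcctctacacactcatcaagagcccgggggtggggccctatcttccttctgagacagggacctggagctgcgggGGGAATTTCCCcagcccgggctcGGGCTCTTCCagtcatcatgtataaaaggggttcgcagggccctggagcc
Cxcl10: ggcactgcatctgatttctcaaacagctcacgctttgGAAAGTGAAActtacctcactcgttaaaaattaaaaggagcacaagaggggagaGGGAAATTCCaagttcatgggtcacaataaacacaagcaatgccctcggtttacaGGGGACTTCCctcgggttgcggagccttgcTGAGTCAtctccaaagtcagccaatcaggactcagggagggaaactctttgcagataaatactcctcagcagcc
Cxcl1, Cxcl2 and Cxcl3 all hold the letters GGGAATTTCC, a kappaB match that begins at -71, -97 and -73 from their starts and is overlapped by a match on the other strand that begins 1 base later, each with a further kappaB match (at -89 in Cxcl1, -78 in Cxcl2 and -50 in Cxcl3). Cxcl10 holds kappaB matches at -159 and -104, an interferon-stimulated response element at -213 and an AP-1 match at -74. Of the 32851 promoters in the table, 4.65% hold the kappaB letters, 2.98% the interferon element, 7.02% the STAT letters and 6.75% the AP-1 letters. Promoters of 27 of the 39 member symbols were in the table, and 7 of these held a kappaB match, 3 an interferon element, 2 a STAT match and 4 an AP-1 match. Among the members with enough counts to be tested, 6 of 9 had a promoter there, and Ccl20 (at -80) was the only one besides Cxcl1, Cxcl3 and Cxcl10 with a kappaB match. These are matches of letters in a window, not sites shown to be bound.

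Of the 44 members, 9 passed the filter on low counts and 35 did not, 27 of them without a count in any library. Of the 9, 5 were higher and 2 lower in AxR cells (edgeR's quasi-likelihood test, threshold of 0.05 on the adjusted p), and Cxcl5 and Ccl25 did not pass. Over all 13550 genes tested, 32.8% were called higher and 30.8% lower, 63.5% in all, so being called is common among genes in general. Levels of the same 7 members were separated between the lines, as were those of 35.1% of all genes tested upward and 33.2% downward, 68.3% in all. For each of the 7 the exact permutation test (two-sided) gave p = 0.1, below which 3 libraries against 3 cannot go. The sizes were uneven. Ccl5, Cxcl3 and Cxcl10 rose by at least 1 on the log2 scale, a size reached upward by 7.99% of all genes tested and downward by 4.72%, and the other changes were under 2-fold. Since these 3 had at most 7 counts in any P library, they passed the filter through the AxR libraries and had to differ, so their number is not evidence about the members. The median log2 fold change of the 9 was 0.56, against 0.0058 over all genes tested, and carries the same limit.

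The libraries held from 15495260 to 17294525 estimated counts, so a count of 3, taken as the floor, stood for 0.171 to 0.196 CPM (counts for every 1000000 of the normalized library size), and floors and intervals of counts cover counting error only. Krt8, Krt18, Epcam and Cdh1, markers of mammary epithelium, were all expressed, the lowest being Epcam in P cells at a mean of 75.4 CPM. The 5 epithelial markers, with Krt14, were all called higher in AxR cells, as were 32.8% of all genes tested. They summed to 1535 to 1695 CPM in P and 2319 to 2409 CPM in AxR libraries. Their part in the chemokine results was not tested. Of 13 leukocyte markers, 1 could be tested (Cd68, from 3.39 to 8.02 CPM), 10 stayed at or under 3 counts in each library, and Adgre1, Ly6g, Tyrobp, Cd3e, S100a9 and Fcer1g had none in any. The summed level of the leukocyte list was 3.53 to 4.04 CPM in P and 8.31 to 8.70 CPM in AxR libraries, nearly all of it Cd68. No endothelial or lung epithelial marker could be tested, with sums of at most 0.693 and 0.425 CPM in any library. The fibroblast list summed to 22.5 to 24.1 CPM in P and 10.2 to 11.6 CPM in AxR libraries, nearly all of it Pdgfra, while Lum and Thy1 had no count.

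**Figure D1:**
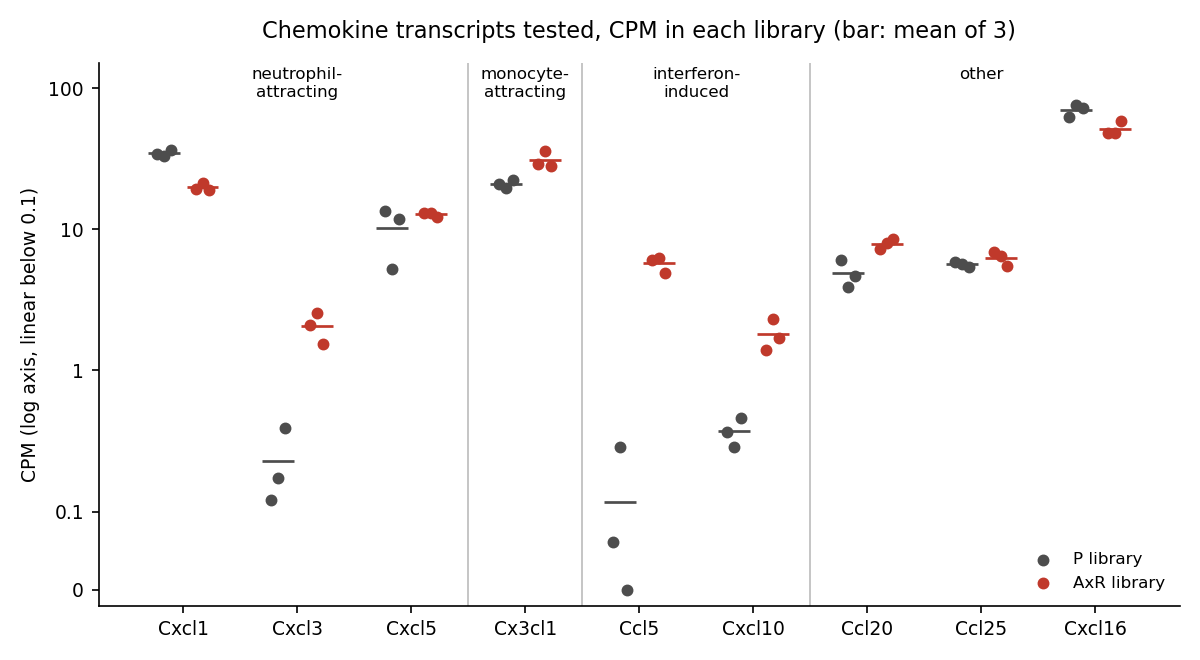
Level of the 9 chemokine transcripts tested, in CPM (log axis, linear below 0.1), grouped as neutrophil-attracting, monocyte-attracting, interferon-induced and other. Grey points are P and red points AxR libraries, with a bar at the mean of 3. The lines separate for 7 genes, upward for Ccl5, Cxcl3, Cxcl10, Cx3cl1 and Ccl20 and downward for Cxcl1 and Cxcl16.

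Among the neutrophil-attracting genes, the main P transcript fell and a minor one rose. Cxcl1, the mouse counterpart of the GRO chemokines and a CXCR2 ligand (ENSMUSG00000029380.11, chromosome 5 of GRCm38 from 90891241 to 90893115), had 34.2, 33.1 and 36.6 CPM in P replicates 1 to 3 and 19.4, 21.2 and 18.9 CPM in AxR replicates 1 to 3. Every AxR library lay below every P library, and the spread within a line was small. The log2 fold change of Cxcl1 was -0.81 (SE, the standard error, 0.0758; adjusted p = 2.51e-07 by edgeR's quasi-likelihood test), a level 1.75-fold higher in P cells. This places it at the 7.28 percentile of log2 fold changes among all genes tested. Over all alternatives its log2 fold change lay between -0.85 and -0.76. The median of the 903 genes tested on chromosome 5 was -0.16.

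Cxcl3, another CXCR2 ligand (ENSMUSG00000029379.10, chromosome 5 from 90786103 to 90789600), had 2, 3 and 6 counts in the P libraries and 33, 40 and 27 in the AxR libraries. In CPM these were 0.122, 0.173 and 0.391 in P and 2.10, 2.55 and 1.54 in AxR cells. The lines did not overlap, but the P values sat near the floor. Cxcl3 had a log2 fold change of 3.15 (SE 0.407, adjusted p = 7.13e-06 by the same edgeR test), and the ratio of summed counts was 9.11 with an exact 95% interval of 4.88 to 18.8. Because Cxcl3 passed the filter through the AxR libraries and had to differ, the p-value adds no support to the counts. Cxcl3 remained scarce in AxR cells, at 0.589 CPM per kb of exon against 10.6 for Cxcl1.

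Cxcl5, the CXCR2 ligand once named LIX (ENSMUSG00000029371.7, chromosome 5 from 90759360 to 90761624), had 13.5, 5.20 and 11.8 CPM in P and 13.0, 13.1 and 12.2 CPM in AxR libraries. P replicate 2 stood below the others, and the remaining P libraries lay around the AxR range. The coefficient of variation was 43.1% in P and 3.75% in AxR libraries. No difference was detected (log2 fold change 0.34, 95% interval -0.53 to 1.20, adjusted p = 0.434 by the same edgeR test), and the interval still allows a change of over 2-fold upward. Without P replicate 2 the log2 fold change was 0.013, and without P replicate 1 it was 0.61 (adjusted p = 0.931 and 0.168 by edgeR).

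Cxcl2, whose promoter is shown above beside that of Cxcl1, had 1, 3 and 3 counts in P and none in AxR libraries. All of these are at or under the floor, so no fold is given. Cxcl15, also called lungkine, had a single count in AxR replicate 1. Along chromosome 5 the genes lie on the plus strand in the order Cxcl5, Ppbp, Pf4, Cxcl3, Cxcl15, Cxcl1 and Cxcl2 within 147 kb, so Cxcl1, which fell, and Cxcl3, which rose, lie in the same cluster. Ppbp, which encodes the platelet CXC chemokine also known as CXCL7 and falls outside the symbol rule, had 3 counts in all P libraries together and 50 in all AxR libraries, with 1.02 CPM in each AxR library. The ratio of its summed counts was 16.7 with an exact 95% interval of 5.4 to 83.7. Every P library of Ppbp was under the floor, so like Ccl5, Cxcl3 and Cxcl10 it passed the filter through the AxR libraries and had to differ. Pf4, its platelet neighbor, had no count. Of the 6 other genes tested within 500 kb of this cluster, 2 were higher and 3 lower, against 32.8% and 30.8% of all genes tested. They ranged from Areg at -1.69 to Rassf6 at 1.40 on the log2 scale. Summed over the group, neutrophil-attracting transcripts were 47.9, 38.7 and 49.0 CPM in P and 34.5, 36.9 and 32.7 CPM in AxR libraries, every AxR library below every P library.

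**Figure D2:**
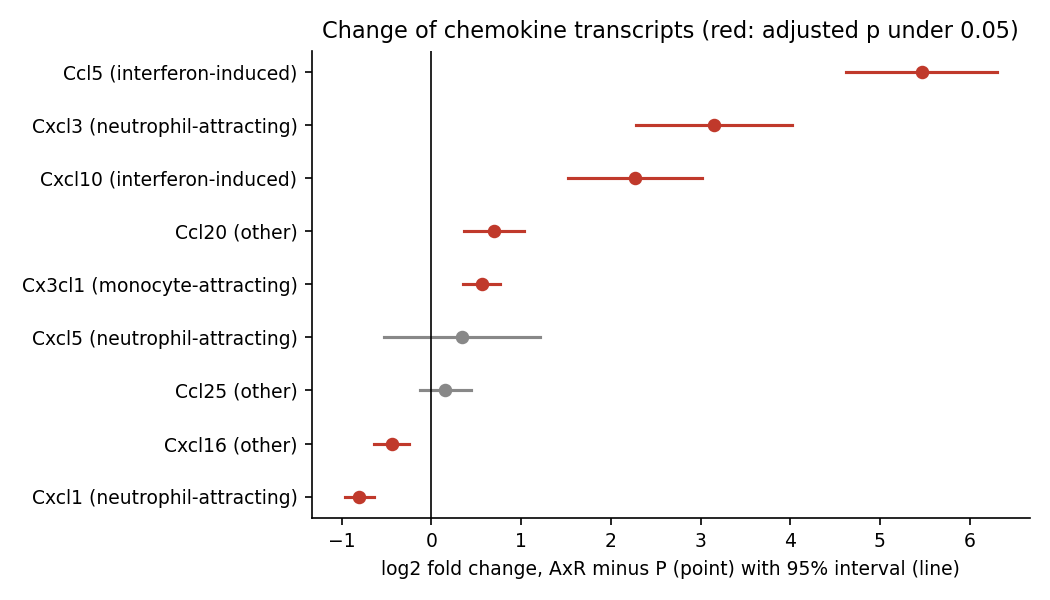
Log2 fold change of each tested chemokine gene in AxR against P cells (point) with its 95% interval from edgeR's quasi-likelihood fit (line). Red marks an adjusted p under 0.05 and grey the 2 genes that did not pass, Cxcl5 and Ccl25. Ccl5 is the highest at 5.46, and the neutrophil attractants Cxcl1 at -0.81 and Cxcl3 at 3.15 lie on opposite sides of 0.

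Of the 9 genes listed as monocyte-attracting, only Cx3cl1 had enough counts to be tested, and it rose. Ccl5, which also draws monocytes, was listed with the interferon-induced genes. Cx3cl1 encodes fractalkine, a membrane-bound chemokine that holds or, once shed, draws monocytes and lymphocytes bearing CX3CR1 (ENSMUSG00000031778.13, chromosome 8 from 94772009 to 94782427, plus strand). Its levels were 20.97, 19.5 and 22.5 CPM in P and 28.8, 35.7 and 28.2 CPM in AxR libraries. Every AxR library lay above every P library, and AxR replicate 2 was the highest. Cx3cl1 had a log2 fold change of 0.56 (SE 0.0959, adjusted p = 0.000127 by edgeR's quasi-likelihood test), and it lay between 0.45 and 0.62 over all alternatives. The median of the 749 genes tested on chromosome 8 was -0.18. Of the 18 other genes tested within 500 kb, 3 were higher and 9 lower, against 32.8% and 30.8% of all genes tested.

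The classical monocyte attractant was at the floor in both lines. Ccl2, the ligand of CCR2, had 0, 0 and 1 counts in P and 2, 0 and 1 counts in AxR libraries, so no fold can be given. Its neighbors on chromosome 11 that bind CCR2 or related receptors, Ccl7, Ccl8 and Ccl12, had no count in any library, nor had Ccl3 and Ccl4. At a count of 0, a level of up to 0.196 CPM remains possible where the floor is highest.

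Ccl6 and Ccl9, a pair of CCR1 ligands beside Ccl5 on chromosome 11, had counts mainly in AxR cells. Ccl6 had 0, 0 and 1 counts in P and 8, 2 and 5 in AxR libraries, a ratio of summed counts with an exact 95% interval of 2.31 to 633. Ccl9 had none in P and 6, 2 and 2 counts in AxR libraries. In both genes an AxR library with 2 counts is under the floor. Neither passed the filter, and in the fit without a filter both were higher (adjusted p = 0.00652 for Ccl6 and 0.00843 for Ccl9 by edgeR). That fit gave smaller p-values for the called members. For Cxcl1 the adjusted p by edgeR was 1.02e-21 without the filter and 2.51e-07 with it. The p-values of Ccl6 and Ccl9 therefore cannot be set beside those of the tested members.

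**Figure D3:**
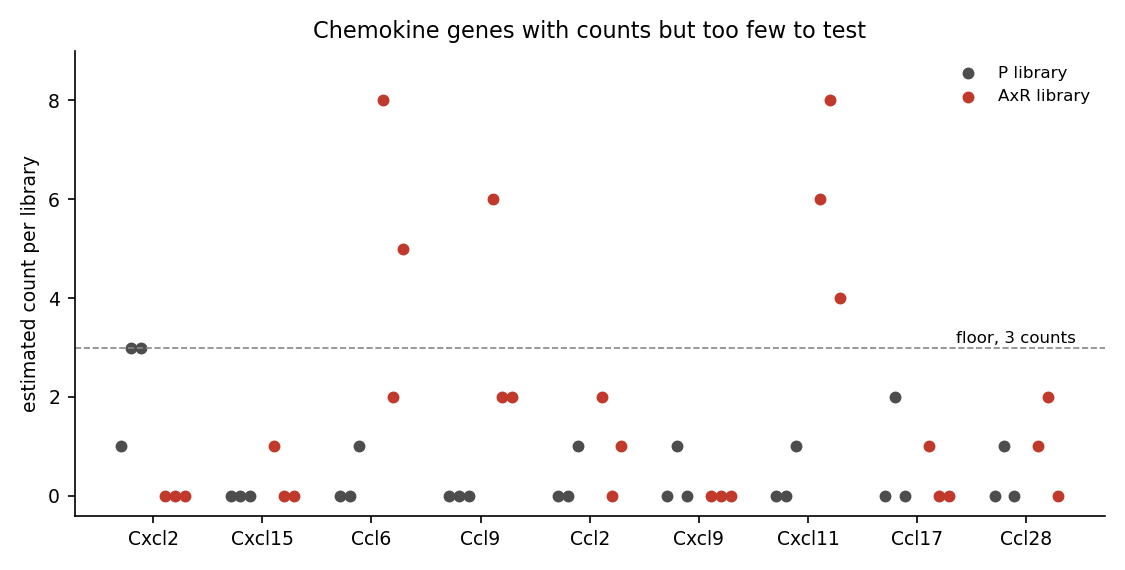
Estimated counts per library of the 8 chemokine genes that had counts but too few to be tested, and of Cxcl11, which the annotation does not class as protein-coding. Grey points are P and red points AxR libraries, and the dashed line is the floor of 3 counts. Ccl6, Ccl9 and Cxcl11 pass the floor in some AxR libraries, and no P library does so.

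The interferon-induced chemokines held the largest rise of all members. Ccl5, which encodes RANTES, which draws T cells and monocytes (ENSMUSG00000035042.2, chromosome 11 from 83525778 to 83530518, minus strand), had 1, 5 and 0 counts in P and 95, 98 and 86 counts in AxR libraries. Its levels were 0.0608, 0.289 and 0 CPM in P and 6.03, 6.25 and 4.89 CPM in AxR libraries, far apart and without overlap. The log2 fold change of Ccl5 was 5.46 (SE 0.394, adjusted p = 1.61e-08 by edgeR's quasi-likelihood test), which stood at the 99.7 percentile of all genes tested. Ccl5 passed the filter through the AxR libraries and had to differ, so neither the p-value nor the percentile adds support to the counts. With so few counts in P cells the size is loosely fixed. The ratio of summed counts was 46.6 with an exact 95% interval of 21.1 to 128, and the log2 fold change lay between 4.95 and 7.19 over the alternatives, the highest coming without P replicate 2, the P library with most counts. Within 500 kb of the cluster from Ccl5 to Ccl4, 2 of the 13 other genes tested were higher and 5 lower. Over all genes tested these shares were 32.8% and 30.8%. The 13 had a median of -0.11, with Slfn10-ps highest at 3.14.

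Cxcl10, which encodes IP-10, a ligand of CXCR3 (ENSMUSG00000034855.13, chromosome 5 from 92346638 to 92348889, minus strand), had 6, 5 and 7 counts in P and 22, 36 and 30 counts in AxR libraries. In CPM this was 0.365, 0.289 and 0.456 against 1.40, 2.30 and 1.71, again without overlap. The log2 fold change was 2.27 (SE 0.348, adjusted p = 4.01e-05 by the same edgeR test), with a ratio of summed counts of 4.90 and an exact 95% interval of 2.93 to 8.65. Like Ccl5, Cxcl10 passed the filter through the AxR libraries, so the p-value adds no support to the counts. Its promoter, shown above, was the only one among the tested members' promoters in the table with an interferon element. Cxcl9, next to it, had 1 count in P replicate 2 and none elsewhere. Cxcl11, the third gene of this cluster and also a CXCR3 ligand, is annotated as a polymorphic pseudogene because the C57BL/6 reference carries a disrupted copy, so the rule left it out. It had 0, 0 and 1 counts in P and 6, 8 and 4 counts in AxR libraries, a ratio of summed counts of 18.0 with an exact 95% interval of 2.85 to 752. Of the 13 other genes tested within 500 kb, 1 was higher and 7 lower, against 32.8% and 30.8% of all genes tested. They ranged from -0.68 to 0.33 on the log2 scale. The summed level of Ccl5, Cxcl10 and Cxcl9 was 0.425, 0.635 and 0.456 CPM in P and 7.43, 8.55 and 6.60 CPM in AxR libraries.

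The remaining 27 members held 3 tested genes, of which 1 rose, 1 fell and 1 did not pass. Cxcl16, a membrane-bound chemokine that also works as a scavenger receptor and binds CXCR6 (ENSMUSG00000018920.11, chromosome 11 from 70453983 to 70459984, minus strand), had 62.2, 75.8 and 72.4 CPM in P and 47.9, 48.1 and 58.5 CPM in AxR libraries. The AxR libraries lay below the P libraries, though AxR replicate 3 came near P replicate 1. The log2 fold change was -0.44 (SE 0.0897, adjusted p = 0.000811 by edgeR's quasi-likelihood test). The median of the 1046 genes tested on chromosome 11 was 0.0077. Cxcl16 shares 552 bases of exon with Zmynd15 on the opposite strand, and its estimated counts were not all whole numbers. Zmynd15 averaged 37.6 counts in P and 19.4 in AxR libraries (log2 fold change -0.96, adjusted p = 0.00391 by edgeR). Whether the counting used the strand is not given in the sources used here, and the part of Zmynd15 reads in the fall of Cxcl16 was not tested.

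Ccl20, the ligand of CCR6 (ENSMUSG00000026166.14, chromosome 1 from 83116766 to 83119167, plus strand), had 6.08, 3.93 and 4.69 CPM in P and 7.24, 8.04 and 8.48 CPM in AxR libraries. The AxR libraries were all higher. Ccl20 had a log2 fold change of 0.70 (SE 0.155, adjusted p = 0.00113 by the same edgeR test), where the 811 genes tested on chromosome 1 had a median of -0.29. Ccl25, the thymus and gut chemokine that binds CCR9 (ENSMUSG00000023235.14, chromosome 8 from 4325210 to 4360020, plus strand), had 5.84, 5.66 and 5.41 CPM in P and 6.92, 6.44 and 5.52 CPM in AxR libraries, which overlap. No difference was detected (log2 fold change 0.15, 95% interval -0.13 to 0.44, adjusted p = 0.331 by the same edgeR test). Ccl25 shares 204 bases of exon with Elavl1 on the opposite strand, a gene with about 3020 counts per P library, so its level may include reads of that gene, which was not tested.

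Of the other members of this group, Ccl17 and Ccl28 had at most 2 counts in any library. No count was found for the eosinophil attractants Ccl11, Ccl24 and Ccl26, for the lymphoid chemokines Ccl19, Ccl21a, Ccl21b, Ccl21c and Cxcl13, for the skin chemokines Ccl27, Ccl27a and Ccl27b, or for Ccl1, Ccl22, Cxcl14, Cxcl17 and Xcl1. Cxcl12, the ligand of CXCR4 and the main stromal chemokine, also had none in any of the 6 libraries. Near-identical copies of Ccl19, Ccl21 and Ccl27 could share reads, but none of their identifiers had any.

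Per length of exon, the chemokine pool had overlapping totals in the lines while its make-up differed. The summed level of the 44 members was 56.8, 54.9 and 60.1 CPM per kb in P and 54.7, 58.3 and 56.4 CPM per kb in AxR libraries, which overlap. Cxcl16 was the most abundant member in both lines, with 40.6% ± 4.78 (SD, n = 3) of the pool in P and 30.2% ± 3.64 (SD, n = 3) in AxR libraries. Cxcl1 followed, with 32.3% ± 0.172 (SD, n = 3) in P and 18.7% ± 0.777 (SD, n = 3) in AxR libraries. Ccl5 went from 0.220% ± 0.290 (SD, n = 3) to 10.6% ± 1.34 (SD, n = 3), Cx3cl1 from 9.32% ± 0.260 (SD, n = 3) to 13.9% ± 1.5 (SD, n = 3), and Ccl20 from 6.02% ± 1.33 (SD, n = 3) to 9.86% ± 0.642 (SD, n = 3). In P cells Cxcl5 and Cx3cl1, at 5.46 and 5.34 CPM per kb, could not be ranked against each other. In AxR cells the levels of Cx3cl1 (7.86), Cxcl5 (6.86), Ccl5 (5.96) and Ccl20 (5.57 CPM per kb) lay close together, and Cxcl10 and Cxcl3 stayed under 1 CPM per kb. Lengths are the union of all annotated exons, so a gene that uses a short form is understated. A share also falls when another member rises.

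**Figure D4:**
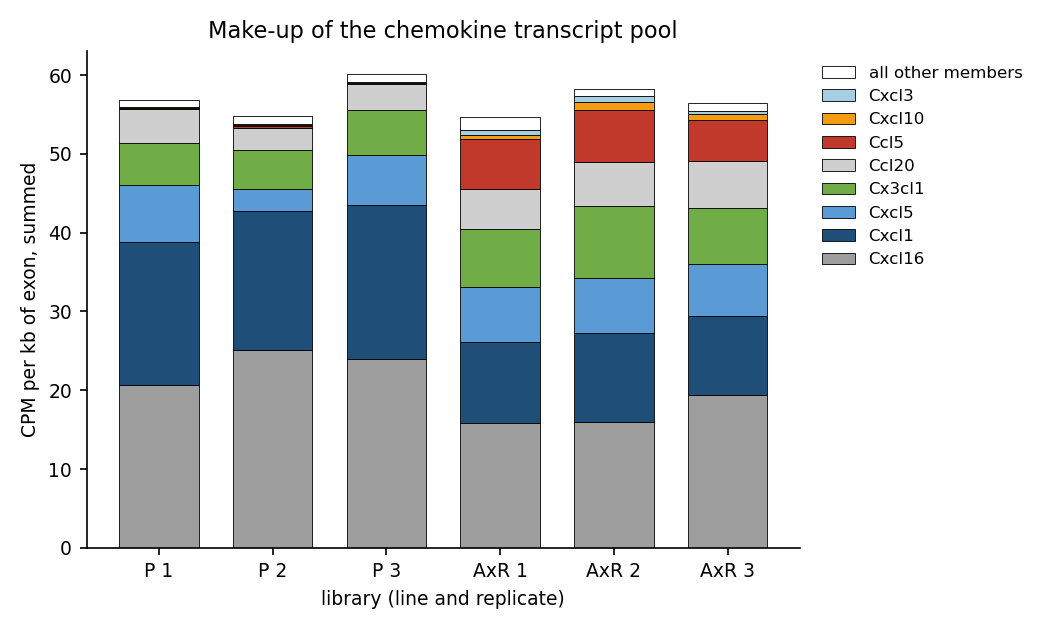
Chemokine transcripts per library, stacked as CPM per kb of exon, for 3 P and 3 AxR libraries. The totals lie between 54.7 and 60.1 CPM per kb in all 6. The segment of Cxcl1 is smaller in each AxR library, and that of Ccl5, hardly visible in P libraries, makes up 9.03% to 11.5% of the AxR pool.

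Of 23 chemokine receptors, 3 had enough counts to be tested. Cxcr3, the receptor of Cxcl9, Cxcl10 and Cxcl11 (ENSMUSG00000050232.6, chromosome X from 101731535 to 101734269), had 53, 61 and 49 counts in P and 2, 2 and 0 counts in AxR libraries. Its mean was 3.31 CPM in P cells. Taken against the highest floor of an AxR library, this was at least 17.3-fold higher than in AxR cells. The adjusted p was 5.82e-08 by edgeR's quasi-likelihood test. Cxcr3 passed the filter through the P libraries and had to differ, so this p-value adds no support to the counts. Ackr3, a scavenging receptor for Cxcl12 and Cxcl11, rose from 43.4, 42.9 and 41.9 CPM in P to 50.2, 54.6 and 58.8 CPM in AxR libraries (log2 fold change 0.35, SE 0.0674, adjusted p = 0.000304 by the same test). Ccr10, the receptor of Ccl27 and Ccl28, had overlapping levels (log2 fold change 0.0056, 95% interval -0.90 to 0.91). Cxcr2, the receptor of the neutrophil attractants, and Cxcr4 had at most 2 counts in any library, and Ccr1, Ccr2, Ccr3 and Ackr1 had none.

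The signalling genes upstream of these chemokines moved both ways. On the interferon side, 7 of 13 tested genes were higher and 4 lower, with a median log2 fold change of 0.22. Those higher by at least 1 were transcription factors, namely Irf7 (3.12, from 0.895 ± 0.199 to 7.85 ± 0.609 CPM, SD, n = 3 each), Stat2 (1.79), Irf1 (1.42) and Irf9 (1.12), while of the receptor chains Ifnar1, Ifnar2 and Ifngr2 were lower, at -0.68, -0.36 and -0.47, and Ifngr1 was higher, at 0.63. Ifnb1 had no count and Ifng at most 1. On the NF-kB side, 6 of 15 were higher and 6 lower with a median of -0.092, against 32.8% and 30.8% of all genes. Tnfaip3, which encodes the feedback inhibitor A20, rose by 1.27 on the log2 scale (106 ± 10.9 to 256 ± 14.8 CPM, SD, n = 3 each), and Il1r1, the interleukin-1 receptor, had a log2 fold change of -1.27 (30.4 ± 1.47 to 12.6 ± 0.355 CPM, SD, n = 3 each). Among the other genes named as NF-kB inhibitors, Nfkbia and Nfkbiz were lower, at -0.71 and -0.42. Nfkbie was higher, at 0.28, and Nfkbib did not pass (-0.14). The NF-kB subunits Rela, Relb and Nfkb2 were lower, at -0.53, -0.55 and -0.38, and Nfkb1 and Rel higher, at 0.23 and 0.30.

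Genes whose products act on chemokine messages or on the finished chemokine were also read out. For comparison, 32.8% of all genes tested were called higher and 30.8% lower. Of 8 genes for message decay and stability, Khsrp and Zfp36l1 were higher (0.54 and 0.22), Zfp36l2 lower (-0.19), and Zfp36, the AU-rich element binding protein tristetraprolin, did not pass (log2 fold change -0.095, 95% interval -0.28 to 0.090). Of 6 genes for shedding and trimming, 3 could be tested. Mmp9, a protease known to cut several CXC chemokines, had a log2 fold change of -1.87 (82.7 ± 1.18 to 22.7 ± 0.558 CPM, SD, n = 3 each). Adam17, a sheddase of Cx3cl1, was higher at 0.25, and Adam10, a sheddase of Cx3cl1 and Cxcl16, did not pass (log2 fold change 0.12, 95% interval -0.019 to 0.26). Dpp4, which trims the ends of several chemokines, had at most 1 count.

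**Figure D5:**
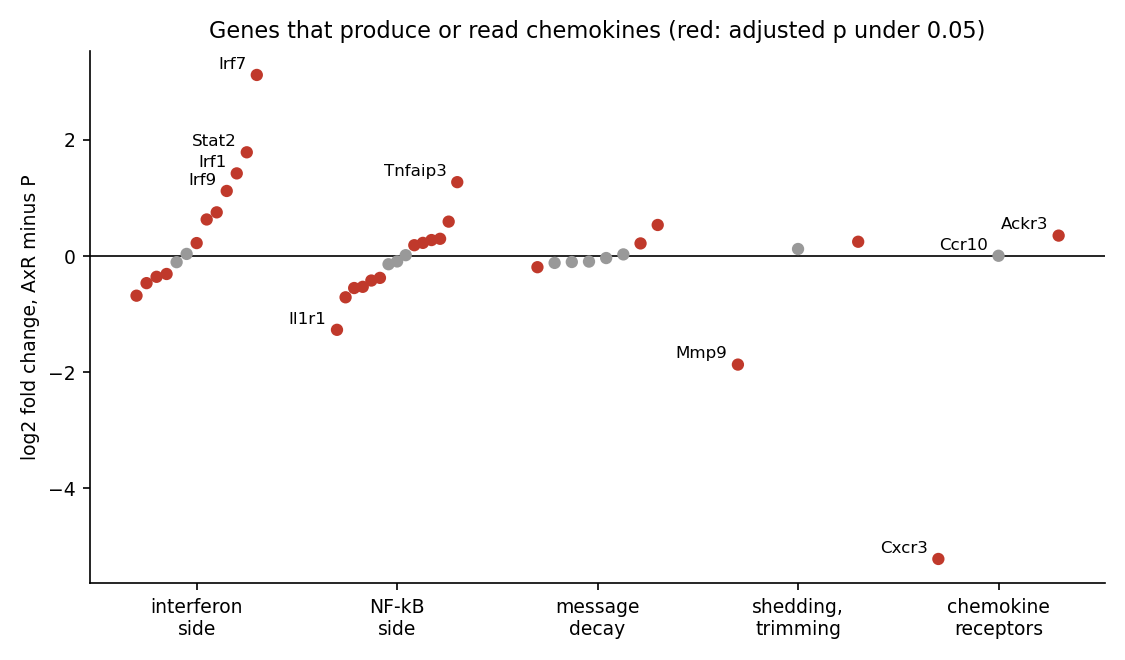
Log2 fold change in AxR against P cells of the tested genes in 5 lists (interferon side, NF-kB side, message decay, shedding and trimming, receptors), 1 point per gene, ordered by size within each list, with red for an adjusted p under 0.05 by edgeR. Names are given where the log2 fold change is 1 or more in size, and for all receptors. Irf7 is the highest of these at 3.12, and Cxcr3, whose fitted value of -5.22 depends on the prior count because AxR libraries are at the floor, the lowest.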

How the data were processed

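RNA of 3 P and 3 AxR libraries (TruSeq stranded, poly(A)-selected) was sequenced, and lines and replicate numbers were taken from the sample titles. The authors used STAR 2.6.0a to align reads to GRCm38 (GENCODE M16) and deposited the estimated count of each gene from RSEM 1.3.1, before filtering and normalization. Estimated counts were rounded, filtered with filterByExpr, scaled with upper-quartile factors, and compared in edgeR 4.0.16 (R 4.3.3) by its quasi-likelihood test, with the line as the only term and Benjamini-Hochberg adjustment over the 13550 genes tested (threshold 0.05). The standard error is the log2 fold change over the root of F, and intervals are 95%. CPM uses the normalized library size. Symbols, positions and exon lengths came from GENCODE M21 of the same build (53360 of 53465 identifiers matched), and promoters from RefSeq on GRCm38.p6. On simulated counts over 13550 genes, the test recovered 95.6% of changes of 2-fold and 83.2% of changes of 1.5-fold, and 5.77% of calls were false. The simulation gave every gene the same spread and changed few genes. Real genes differ in spread and 63.5% were called, so these rates may be too favorable for the real data. Named genes were all members with counts, with genes of the other lists that were called with a log2 fold change of 1 or more in size, were among the most abundant of their list, or, chosen after their values were seen, have a role discussed here. The members and lists were chosen with earlier results of these data known. Alternatives were TMM, library size only, DESeq2 1.42.0, no filter, at least 10 counts in every library, the replicate number as a block, each library left out and a fold threshold.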

Additional observations from a re-analysis of the deposited data

How the results depend on the processing

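Apart from the fold threshold, the 9 tested members kept their direction and their side of the threshold under every alternative that could test them. These were 105 comparisons in all, drawn from the same 6 libraries, so they are not independent. For Ccl5, Cxcl3 and Cxcl10 the limit of the low-count filter given above holds here too. For Cxcl5 and Ccl25 they mean only that the gene stayed uncalled. Ccl5, Cxcl3 and Cxcl10 could not be tested with at least 10 counts in every library, which left 2 members higher, with 0 higher among neutrophil-attracting genes, 0 among interferon-induced genes and 0 among the relatives Ppbp and Pf4, and 0 receptors lower. Without a filter, 2 neutrophil-attracting genes were lower (Cxcl2 joined Cxcl1), 3 monocyte-attracting genes higher (with Ccl6 and Ccl9) and 3 receptors higher. In that fit 4761 of all genes were higher and 4337 lower, and its p-values cannot be set beside those of the main fit. Every count of Cxcl2 was at or under the floor. A further threshold of 1 on the size of the log2 fold change left 1083 of all genes higher and 640 lower, 3 members higher and 0 lower, 0 neutrophil-attracting genes lower, 0 monocyte-attracting genes higher, 0 other chemokines higher and 0 lower, 0 receptors higher, 1 NF-kB side gene higher and 1 lower, 4 interferon side genes higher and 0 lower, 0 message decay genes higher and 0 lower, and 0 shedding and trimming genes higher. These follow from the filters and the added criterion. With library size only, 2 message decay genes were lower. With a library left out, from 1 to 2 message decay genes were lower (2 without P replicate 2 or AxR replicate 1). From 1 to 2 shedding and trimming genes were then higher (2 without AxR replicate 3). NF-kB side genes called higher ranged from 4 (without AxR replicate 2) to 6, while 6 stayed lower. Interferon side genes called higher ranged from 6 to 7, and the cause of these shifts was not tested. With library size only or DESeq2, 5 NF-kB side genes were higher.

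Same-numbered P and AxR libraries did not deviate together (correlations of -0.021, -0.0061 and -0.022). With 3 libraries in each line, this cannot show whether same-numbered libraries were handled together. With the replicate number as a block, 4304 genes were higher and 4023 lower, and 5 members higher and 2 lower. Depth limits the statements on Ccl2, Cxcl2, Ccl6 and Ccl9, whose P counts all lay at or under the floor of 3.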
